A study of Mus musculus with 18 samples.

Results

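The red cell programme of end-stage splenic lymphomas was described through 36 genes of erythroid maturation and haem synthesis. Of these, 35 were measured by a probe set with a single gene symbol, among 19938 genes in all, and Ahsp was not analysed here. The genes were chosen by their known function and from differences between the genotypes in the same arrays. A shorter erythroid list, Fam210b and Ackr1 had been noticed there for lower levels in Prdm11 knockout tumours. The differences between genotypes are therefore given as a description of these tumours, and they support nothing beyond it. Each gene was represented by its probe set of highest mean over the arrays. The 35 genes comprised 5 transcription factors, 2 surface receptors, 7 haem synthesis enzymes, 2 mitochondrial carriers, 7 membrane transporters, channels or blood group proteins, 4 proteins of the membrane skeleton and 6 other maturation genes, with Fam210b and Ackr1 set beside these 33.

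RNA came from 18 whole, unsorted splenic tumours, 9 from Eμ-Myc;Prdm11 KO mice and 9 from Eμ-Myc;Prdm11 WT mice, 1 tumour per mouse, and 1 Affymetrix array was hybridised with each. All 18 mice were transgenic for Eμ-Myc, where Myc is expressed in B lineage cells from the enhancer of the immunoglobulin heavy chain locus, so the red cell precursors were host cells of the spleen and not the intended target of the transgene. The labels give C57BL/6 as the background strain of every mouse, record no treatment and state neither age nor sex. Levels are log2 RMA intensities, and differences are KO minus WT on that scale, with the standard error (SE) of the limma fit. SEs of differences with the mean of the other members as covariate come from an ordinary least squares fit of each gene, without limma.

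Red cell precursors differentiate in erythroblastic islands, and the mouse spleen is a site of this process alongside the bone marrow, most of all under anaemia. Gata1, Klf1 and Tal1 drive the programme, erythropoietin keeps precursors alive, and iron taken up through the transferrin receptor is built into haem by a pathway that starts and ends in mitochondria. As cells mature they assemble a membrane of band 3, Rh proteins, ankyrin and spectrin and then clear their organelles. In bulk tumours fewer red cell precursors and less RNA per precursor cannot be told apart.

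All 13 measured pan-B markers had mean levels above that of the median gene, and their summed linear intensity ran from 7252 to 8239 in KO tumours and from 5096 to 9788 in WT tumours. The single probe set of Prdm11 read 4.87 to 5.49 in KO tumours and 4.84 to 5.66 in WT tumours. The means were 5.21 ± 0.23 and 5.33 ± 0.26 (SD, n = 9 each), a difference of -0.12 (limma adjusted p = 0.868). Whether it lies inside the deletion is unknown here, and it cannot serve as a check of the labels. The array least like the rest was that of WT tumour 3, whose correlations with the others had a median of 0.924, where the remaining arrays had 0.957 to 0.975. Values without it are given for some of the results that it moved.

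Sequences just upstream of the start sites are shown for 4 genes the results turn on, the haem enzyme Alas2, the transcription factor Klf1, and Fam210b and Ackr1. Each runs 5′ to 3′ on the gene's own strand from 250 bases before to 50 bases after the start in RefSeq on GRCm38.p6. The positions are chrX:150547167-150547466 (plus strand) for Alas2, chr8:84901732-84902031 (plus strand) for Klf1, chr2:172345327-172345626 (plus strand) for Fam210b and chr1:173333454-173333753 (minus strand) for Ackr1. Capitals mark GATAA, letters that GATA factors bind, and CACCC, letters that Klf1 and its relatives bind, on either strand (TTATC and GGGTG are the same letters read on the other strand).
Alas2: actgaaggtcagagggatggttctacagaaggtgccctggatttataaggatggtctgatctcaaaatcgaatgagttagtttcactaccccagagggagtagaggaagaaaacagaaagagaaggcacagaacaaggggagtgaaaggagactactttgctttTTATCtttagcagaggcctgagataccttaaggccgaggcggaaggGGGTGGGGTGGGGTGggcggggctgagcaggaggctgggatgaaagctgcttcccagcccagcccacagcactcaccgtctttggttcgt
Klf1: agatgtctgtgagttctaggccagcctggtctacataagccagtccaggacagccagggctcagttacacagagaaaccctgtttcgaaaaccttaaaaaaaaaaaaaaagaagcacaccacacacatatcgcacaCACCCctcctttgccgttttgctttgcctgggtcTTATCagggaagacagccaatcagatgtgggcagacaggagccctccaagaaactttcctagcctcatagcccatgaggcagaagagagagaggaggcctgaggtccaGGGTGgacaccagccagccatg
Fam210b: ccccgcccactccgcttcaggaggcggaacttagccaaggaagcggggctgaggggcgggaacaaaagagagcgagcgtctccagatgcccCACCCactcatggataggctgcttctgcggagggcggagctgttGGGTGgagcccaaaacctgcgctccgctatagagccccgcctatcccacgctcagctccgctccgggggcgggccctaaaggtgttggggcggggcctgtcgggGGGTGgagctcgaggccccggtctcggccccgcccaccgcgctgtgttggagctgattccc
Ackr1: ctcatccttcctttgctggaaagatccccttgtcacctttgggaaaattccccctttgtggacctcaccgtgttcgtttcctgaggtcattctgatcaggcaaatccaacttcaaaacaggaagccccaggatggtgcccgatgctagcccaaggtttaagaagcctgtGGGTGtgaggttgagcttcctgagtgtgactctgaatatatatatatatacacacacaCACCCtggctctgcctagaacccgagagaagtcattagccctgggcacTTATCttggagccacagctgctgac

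The windows of Alas2, Klf1 and Ackr1 held 1 GATAA each, and that of Fam210b held 0. CACCC occurred 3 times in Alas2, 2 times in Klf1, 3 times in Fam210b and 2 times in Ackr1, with 0 overlaps between the 2 motifs. Promoter windows were listed for 29 of the measured members. GATAA was present in 17 of them (58.6%), and in 28.4% of the 27025 genes of the table. CACCC was present in 24 of the 29 (82.8%), beside 59.8% of all genes. TGACTCA, a motif of the Nfe2 complex, was found in 2 of the 29 (6.9%) and in 5.95% of all genes. CANNTG, the E-box bound by Tal1 and its partners, was in 24 (82.8%) and in 75.0% of all genes, and it was left in lower case above. These are matches of letters only, on both strands, counted over all listed start sites of a gene.

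Every measured member had a lower mean in KO tumours than in WT tumours. The difference was below 0 for 35 of 35 members, where 59.2% of all genes were below 0. Its median over the 33 members was -0.50, a 1.41-fold lower intensity, while the median over all genes was -0.03. None of the 35 passed the limma threshold of an adjusted p below 0.05 over all genes, in either direction. Over all 19938 genes, 0.00502% were called lower in KO tumours and 0% higher. At an unadjusted p below 0.05, 23 of the 35 were lower and 0 higher, where 3.87% of all genes were lower. Because the members were picked with this contrast in view, nothing is read from these counts. The count of 23 was 13 without KO tumour 6 or without WT tumour 1, and 15 without WT tumour 2 or WT tumour 6. Without WT tumour 1 the median difference of the 33 came to -0.35, and without WT tumour 3 to -0.55.

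**Figure D1:**
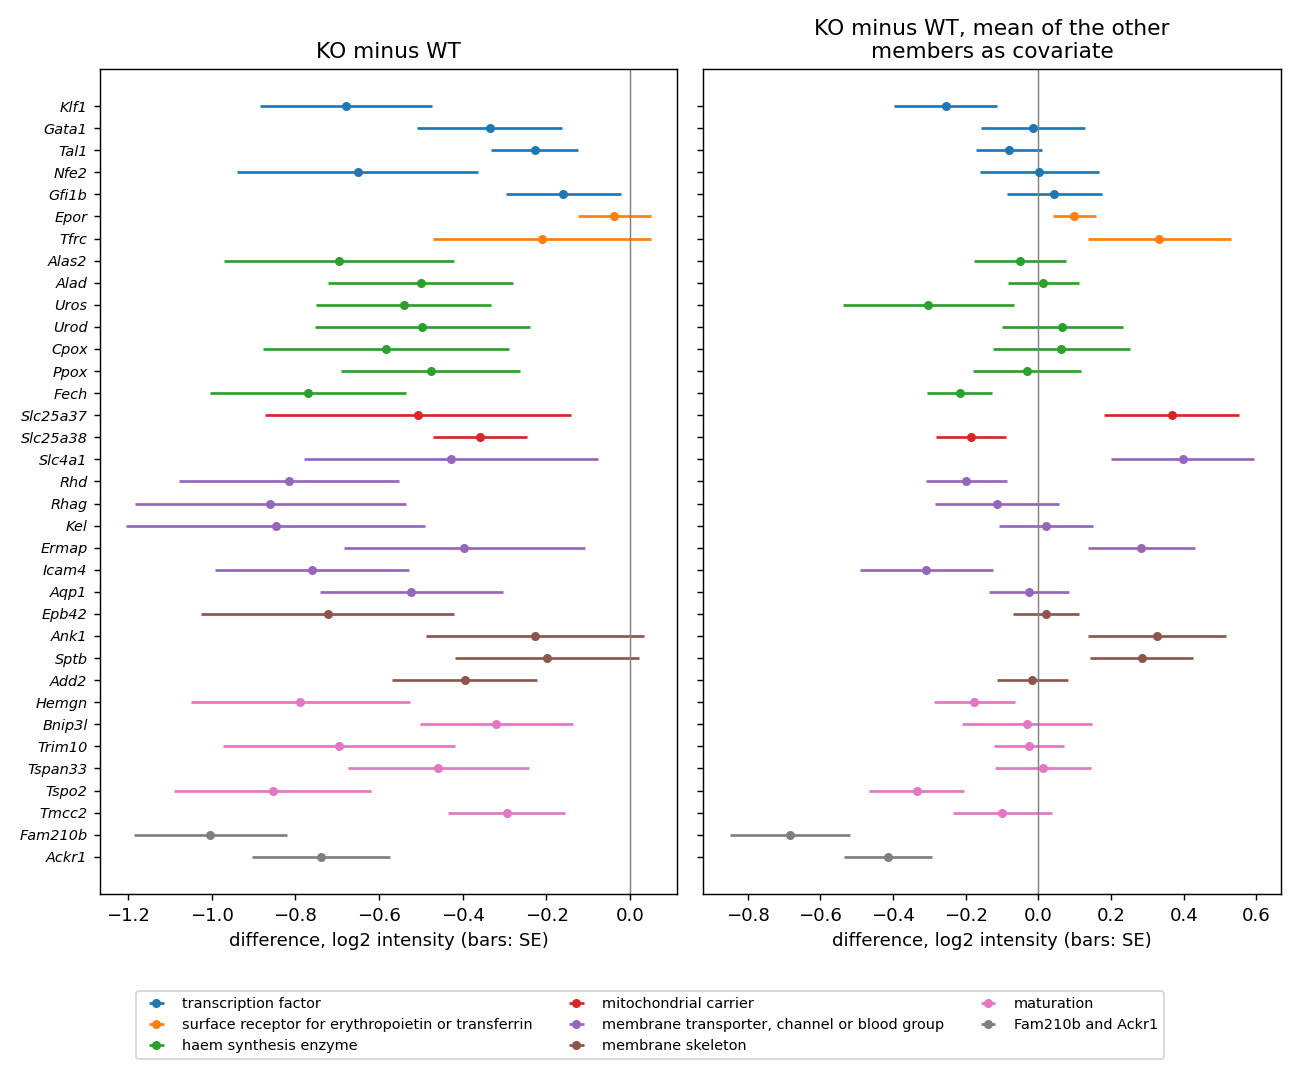
KO minus WT difference of log2 intensity for each of the 35 measured members, coloured by role, with bars of 1 SE (left), and the same difference with the mean of the other members as covariate (right). On the left all 35 points lie below 0, from -1.0 for Fam210b to -0.04 for Epor. On the right the 33 other members spread from -0.33 to 0.40, with Fam210b at -0.68 and Ackr1 at -0.41. Bars on the right are 1 SE of an ordinary least squares fit of each gene, and those on the left are from limma.

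The mean log2 level of the 33 members differed widely between tumours of the same genotype. It ran from 6.23 to 7.41 with a median of 7.07 in KO tumours, and from 6.93 to 8.54 with a median of 7.20 in WT tumours. The ranges overlapped, since 4 KO tumours lay below every WT tumour and 4 WT tumours above every KO tumour. The lowest value, 6.23, was that of KO tumour 6 and the highest, 8.54, that of WT tumour 1, a 4.97-fold range in intensity. WT tumour 1 had the highest WT level of 32 of the 35 members, and KO tumour 6 the lowest KO level of 23. KO tumour 6 also had the highest mean of the T cell markers among KO tumours, 7.34, while the other KO tumours had 5.24 to 6.03. WT tumours 4, 5 and 8 had 7.07, 6.83 and 7.30 for the same markers. Its mean of mitotic genes, 7.63, was the lowest of all tumours. The part of these other cells in the erythroid values was not tested.

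The transcription factors of the list had differences from -0.68 to -0.16, with a median of -0.34. Klf1, an erythroid Krüppel-like factor that activates the adult beta-globin gene, had a lowest level of 6.30, a median of 6.64 and a highest of 7.0 in KO tumours, and 6.55, 7.34 and 8.37 in WT tumours. The groups overlapped, but all 9 KO tumours lay below the WT median and 3 lay below every WT tumour. Klf1 averaged 6.63 ± 0.26 in KO tumours and 7.31 ± 0.62 in WT tumours (SD, n = 9 each), a difference of -0.68 (SE 0.21). KO tumours were closely grouped for Klf1, and the wider spread lay in WT tumours.

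Nfe2 encodes the p45 subunit of the NF-E2 factor, which acts in red cells and in megakaryocytes. It ran from 6.30 over a median of 7.56 to 7.84 in KO tumours and from 7.01 over 8.22 to 9.50 in WT tumours, and again 9 of 9 KO tumours were below the WT median. Its difference was -0.65 (SE 0.29). Gata1, the founding GATA factor of the red cell lineage, averaged 5.84 ± 0.22 in KO tumours and 6.17 ± 0.51 in WT tumours, a difference of -0.34 (SE 0.17). The differences were -0.23 (SE 0.10) for Tal1, a basic helix-loop-helix factor, and -0.16 (SE 0.14) for Gfi1b, a zinc finger repressor. Without WT tumour 1 the values of Gata1 and Gfi1b were -0.21 and -0.07. Gata1, Tal1, Nfe2 and Gfi1b are also used by megakaryocytes, and the 9 measured megakaryocyte and platelet markers had a median difference of 0.03, with 4 of 9 below 0. Their summed linear intensity ran from 1753 to 4808 in KO tumours and from 1712 to 5546 in WT tumours, and each of the 9 had a mean above that of the median gene. How much megakaryocytes add to the levels of these factors was not tested.

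Of the receptors, Epor, which binds erythropoietin, hardly separated the genotypes. It averaged 5.55 ± 0.13 in KO tumours and 5.59 ± 0.19 in WT tumours, a difference of -0.04 (SE 0.09), and the sign turned without WT tumour 1 (0.014). Its value was -0.01 without KO tumour 9, -0.06 without KO tumour 3 or KO tumour 7, and -0.08 without WT tumour 7. Tfrc, the transferrin receptor, averaged 9.80 ± 0.48 in KO tumours and 10.01 ± 0.71 in WT tumours, a difference of -0.21 (SE 0.26). Tfrc is used by dividing cells of many kinds as well as by erythroblasts. KO tumour 6 read 8.71 for Tfrc, with the next KO tumour at 9.65. The Tfrc difference was -0.07 without KO tumour 6, -0.06 without WT tumour 1, -0.13 without WT tumour 6 and -0.37 without WT tumour 3.

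**Figure D2:**
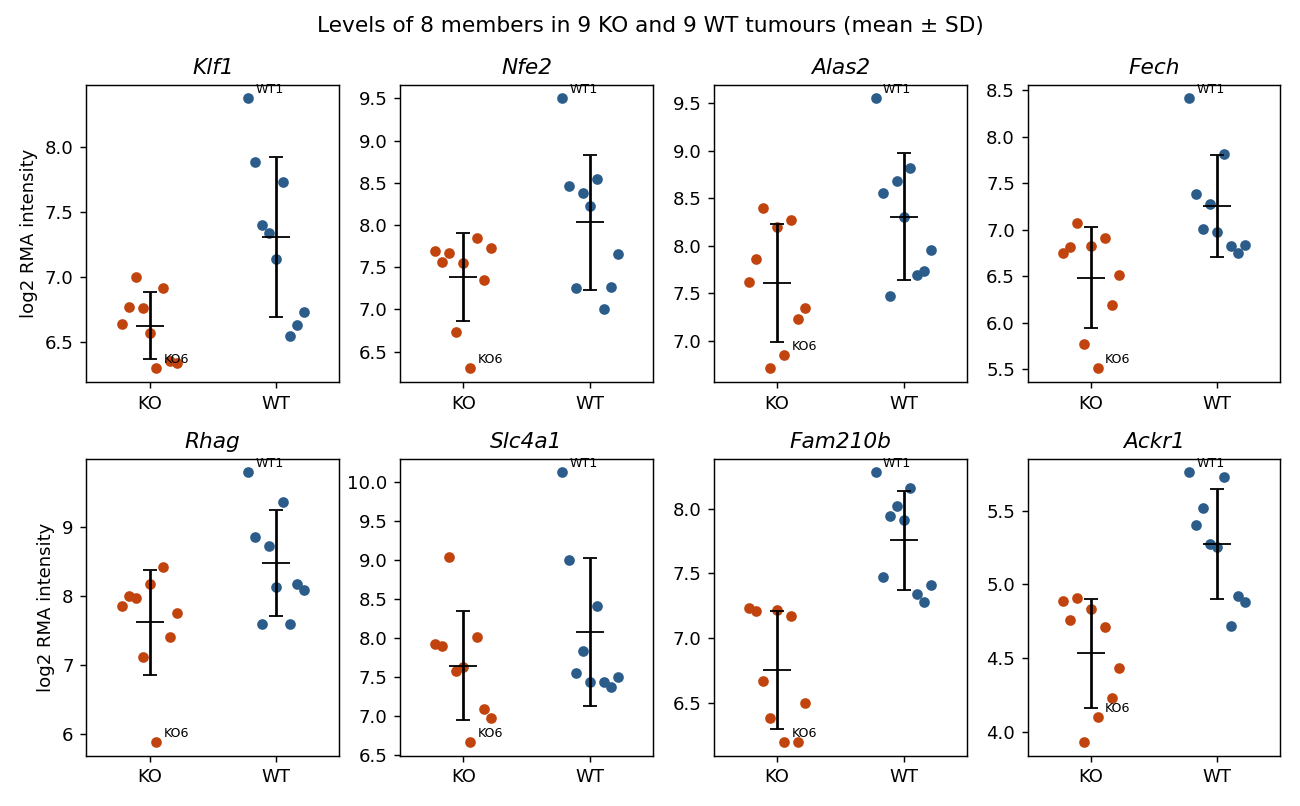
Log2 RMA intensity of 8 members in 9 KO tumours (left in each panel) and 9 WT tumours (right), 1 point per tumour, with mean and SD as black bars and separate y axes. Fam210b is the panel in which all KO points lie below all WT points. WT tumour 1 (WT1) is the highest WT point in each panel, and KO tumour 6 (KO6) is among the 2 lowest KO points.

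All 7 measured enzymes of haem synthesis had differences between -0.77 and -0.48. Alas2, the erythroid form of the enzyme that joins glycine and succinyl-CoA in the mitochondrion, had 6.71 as its lowest level, 7.62 as median and 8.40 as highest in KO tumours, and 7.47, 8.30 and 9.55 in WT tumours. The groups overlapped between 7.47 and 8.40, with 4 KO tumours below every WT tumour and 8 below the WT median. Its means were 7.61 ± 0.62 and 8.31 ± 0.67 (SD, n = 9 KO and 9 WT), a difference of -0.70 (SE 0.28).

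The cytosolic steps follow Alas2. Alad, which makes porphobilinogen, had a difference of -0.50 (SE 0.22). Uros, which closes the ring to uroporphyrinogen III, had -0.54 (SE 0.21), and Urod, which removes carboxyl groups from it, had -0.50 (SE 0.26). For Urod only 4 of 9 KO tumours lay below the WT median, and the KO median of 8.51 was above the WT median of 8.43, and KO tumours 4, 6 and 8, at 7.15, 7.07 and 7.47, lay below every WT tumour. The pathway returns to the mitochondrion with Cpox, coproporphyrinogen oxidase, at -0.58 (SE 0.29), and with Ppox, protoporphyrinogen oxidase, at -0.48 (SE 0.21). The Cpox difference was -0.38 without WT tumour 1.

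Fech encodes ferrochelatase, which inserts iron to complete haem, and it had the lowest difference of the 7 enzymes. Its lowest, median and highest levels were 5.51, 6.75 and 7.07 in KO tumours and 6.75, 7.01 and 8.41 in WT tumours. KO tumours reached up to the WT median but not far beyond it. The difference was -0.77 (SE 0.23), or -0.62 without WT tumour 1. Among the carriers, Slc25a37 (mitoferrin 1), which brings iron into mitochondria, had -0.51 (SE 0.37), and Slc25a38, a mitochondrial glycine carrier, had -0.36 (SE 0.11). Slc25a38 had 6 of 9 KO tumours below every WT tumour, the most among the 33 members. The Slc25a37 difference was -0.25 without WT tumour 1. Its KO median of 7.86 was above its WT median of 7.76, with 4 of 9 KO tumours below the WT median.

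The membrane transporters, channels and blood group proteins had differences from -0.86 to -0.40. Rhag, the Rh-associated glycoprotein, had 5.88, 7.86 and 8.43 as lowest, median and highest level in KO tumours and 7.59, 8.18 and 9.80 in WT tumours. The lowest value was that of KO tumour 6, with the next KO tumour at 7.12. The difference was -0.86 (SE 0.32), or -0.64 without KO tumour 6, and Rhag also had the widest range over all tumours, 15.1-fold. Rhd, the Rh blood group protein, had -0.81 (SE 0.26), and Kel, a zinc endopeptidase that carries the Kell blood group in humans, had -0.85 (SE 0.36). The values were -0.67 for Rhd without KO tumour 6 and -0.62 for Kel without WT tumour 1. That of Kel was -0.98 without WT tumour 3. Icam4, the Landsteiner-Wiener adhesion protein of human red cells, had -0.76 (SE 0.23), with 9 of 9 KO tumours below the WT median.

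Aqp1, a water channel also found in vessels, had a difference of -0.52 (SE 0.22). Ermap, an immunoglobulin-like protein of the erythroid membrane, had -0.40 (SE 0.29), and Slc4a1, the anion exchanger band 3, had -0.43 (SE 0.35). The Slc4a1 levels of the genotypes overlapped widely, and the KO median of 7.63 was above the WT median of 7.56. Slc4a1 averaged 7.65 ± 0.70 in KO tumours and 8.07 ± 0.94 in WT tumours, only 3 of 9 KO tumours were below the WT median, and the difference was -0.17 without WT tumour 1. The Ermap difference was -0.18 without that tumour.

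Within the membrane skeleton the spread was as wide. Epb42, protein 4.2, had a difference of -0.72 (SE 0.30) and Add2, beta-adducin, -0.40 (SE 0.17). Ank1, ankyrin 1, had -0.23 (SE 0.26) and Sptb, beta-spectrin, had -0.20 (SE 0.22). Without WT tumour 1 the values of Epb42, Add2, Ank1 and Sptb were -0.53, -0.27, -0.03 and -0.01. That of Ank1 was -0.12 without WT tumour 2. The KO median of Ank1, 6.07, was above its WT median of 5.97, with 4 of 9 KO tumours below the WT median. Add2 and Ackr1 were the 2 members whose mean level was below that of the median gene.

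Among the other maturation genes, Tspo2, a translocator protein of erythroid cells, averaged 6.14 ± 0.58 in KO tumours and 7.0 ± 0.51 in WT tumours, a difference of -0.85 (SE 0.24), with 9 of 9 KO tumours below the WT median. Hemgn, the nuclear protein hemogen, had -0.79 (SE 0.26), and Trim10, a RING finger protein needed for late maturation, had -0.70 (SE 0.28). The values were -0.62 for Hemgn without KO tumour 6 and -0.51 for Trim10 without WT tumour 1. That of Tspo2 was -0.93 without WT tumour 3 and -0.73 without KO tumour 6. Tspan33, a tetraspanin, had -0.46 (SE 0.22), or -0.29 without WT tumour 1, and Tmcc2, a protein with transmembrane and coiled-coil domains, had -0.30 (SE 0.14). Bnip3l (Nix), the receptor for removal of mitochondria from reticulocytes, had -0.32 (SE 0.18). Its 2 probe sets gave -0.32 and -0.34. The Bnip3l difference was -0.41 without WT tumour 3 and -0.22 without KO tumour 4.

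The 33 members varied together from tumour to tumour, a measure that the genotype difference does not enter once genotype means are subtracted. Across the 18 tumours, the Pearson correlation of a member with the mean of the other members had a median of 0.88 and ran from 0.47 to 0.97, with 24 of the 33 above 0.8. Epb42 (0.97), Trim10 (0.96), Kel (0.96) and Fech (0.96) followed the others most closely. Uros (0.47), Tmcc2 (0.60), Gfi1b (0.63), Bnip3l (0.65) and Tal1 (0.65) followed them least. This order differed between the genotypes. In KO tumours alone these 5 had 0.65, 0.68, 0.42, 0.66 and 0.31, with Tal1 the lowest of the 33. In WT tumours alone they had 0.34, 0.64, 0.73, 0.65 and 0.85, with Uros the lowest of the 33. These correlations share arrays and are given with no test.

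**Figure D3:**
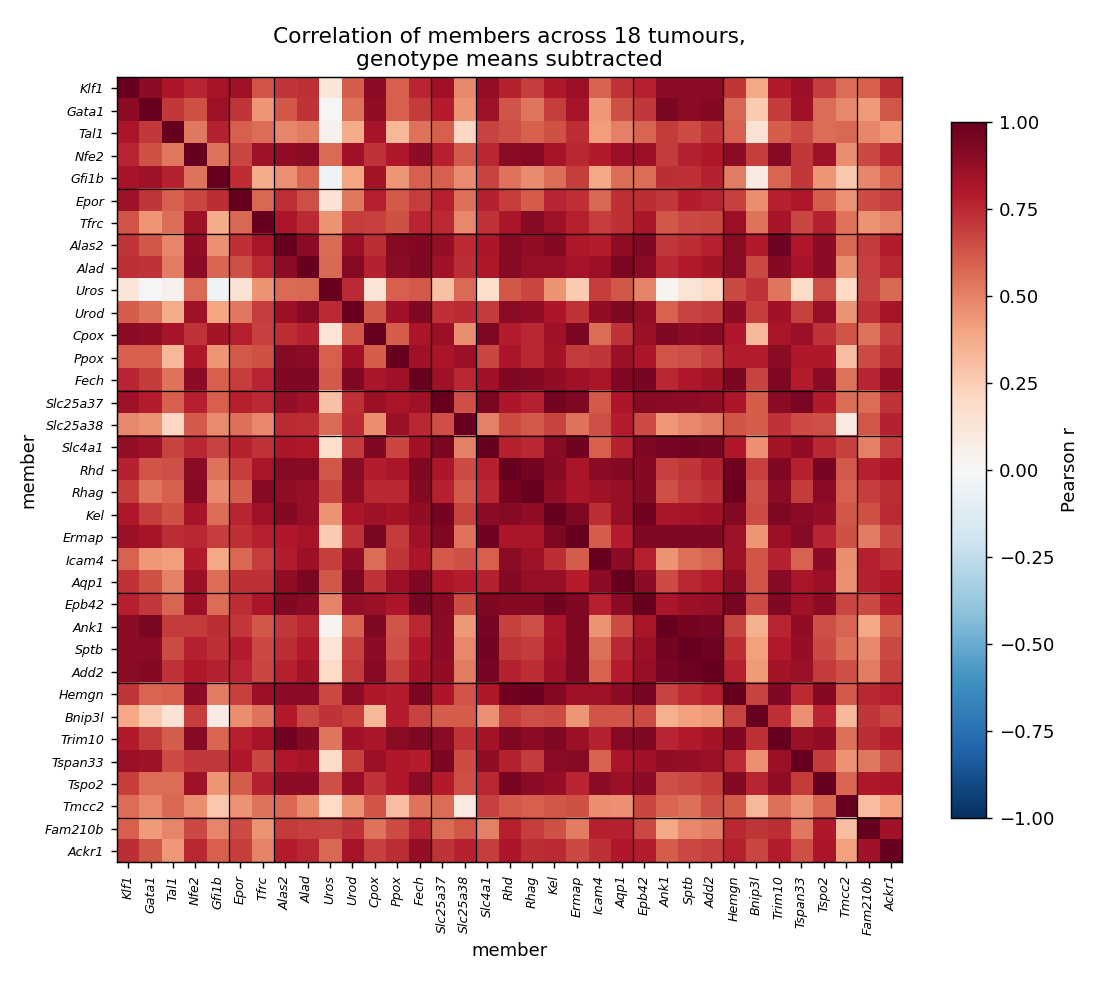
Pearson correlation between each pair of the 35 measured members over 18 tumours after subtraction of the genotype means, in the order of their roles (black lines part the roles). Nearly all squares are red, with a median of 0.75 over the 528 pairs of the 33 members. The Uros row is palest, reaching -0.04 with Gfi1b, and Fam210b and Ackr1 are in the last 2 rows.

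Over the 528 pairs among the 33 members the median correlation was 0.75, and 202 pairs exceeded 0.8 while 2 were below 0. The closest pair was Hemgn and Rhag at 0.98, followed by Trim10 and Alas2 at 0.97 and by Add2 and Sptb at 0.97. Gata1 was closest to Ank1 (0.94), Add2 (0.92) and Sptb (0.90). Klf1 was closest to Add2 (0.91) and Cpox (0.90). Uros was closest to its pathway neighbour Urod (0.75) and to Bnip3l (0.72), and its correlations with Gata1 and Gfi1b were -0.02 and -0.04. The 5 genes outside the members most like the mean of the 33 were Ctse (0.98), Btnl10 (0.96), Pkhd1l1 (0.95), Car2 (0.95) and Tmod1 (0.95).

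Fam210b, which encodes a mitochondrial protein, was set against the rest of the list. Its lowest, median and highest levels were 6.2, 6.68 and 7.23 in KO tumours and 7.28, 7.91 and 8.28 in WT tumours. The highest KO tumour lay under the lowest WT tumour, a separation seen in 1 of the 35 members and in 0.01% of all genes, and this separation was among the reasons Fam210b was picked. The difference was -1.0 (SE 0.18), a 2.0-fold lower intensity. With single tumours left out it stayed between -1.06 and -0.93. Fam210b lies on chromosome 2, as do Prdm11, Gfi1b and Epb42, with 756 measured genes between Fam210b and Prdm11 in the GRCm38.p6 gene table. Gfi1b and Epb42 had 643 and 208 measured genes between them and Prdm11.

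Ackr1 is the Duffy antigen receptor, which binds chemokines without signalling and is carried by red cells and by the endothelium of venules. Its lowest, median and highest levels were 3.93, 4.71 and 4.91 in KO tumours and 4.72, 5.27 and 5.76 in WT tumours. The groups overlapped only at their edges, with 5 of 9 KO tumours below every WT tumour and 9 of 9 below the WT median. The difference was -0.74 (SE 0.16). Its mean lay at percentile 35.3 of all genes and the array medians ran from 5.14 to 5.38, so the signal was dim. The 14 measured endothelial markers had a median difference of -0.03, with 9 of 14 below 0 and a summed linear intensity of 537 to 824 in KO tumours and 541 to 787 in WT tumours. Among them Kdr, Tek, Tie1, Emcn, Esam, Sele, Lyve1 and Robo4 had means below that of the median gene. How much endothelium adds to the Ackr1 levels was not tested.

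Beside the mean of the 33 other members as covariate, Fam210b and Ackr1 kept differences below those of the rest. Fam210b had -0.68 (SE 0.17) and Ackr1 -0.41 (SE 0.12). The same model, with the mean of the other 32 members for each of the 33, gave values from -0.33 for Tspo2 to 0.40 for Slc4a1, with 18 of 33 below 0. Fam210b and Ackr1 thus had the 2 lowest values of the 35. Ackr1 lay close to Tspo2 (-0.33, SE 0.13) and Icam4 (-0.31, SE 0.18), within its own SE. Without WT tumour 3, Fam210b and Ackr1 were -0.60 and -0.31, and values of the 33 without it are not given here. A separate limma fit of all genes took the mean of all 33 members as covariate, so each of the 33 was part of its own covariate. In that fit 4 of the 35 members were lower and 2 higher at an unadjusted p below 0.05. Of all genes, 5.71% were lower and 6.7% higher there. The comparison of Fam210b and Ackr1 with the rest rests on the contrast by which both genes were picked. No test of that comparison is given, and nothing is read from the counts.

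**Figure D4:**
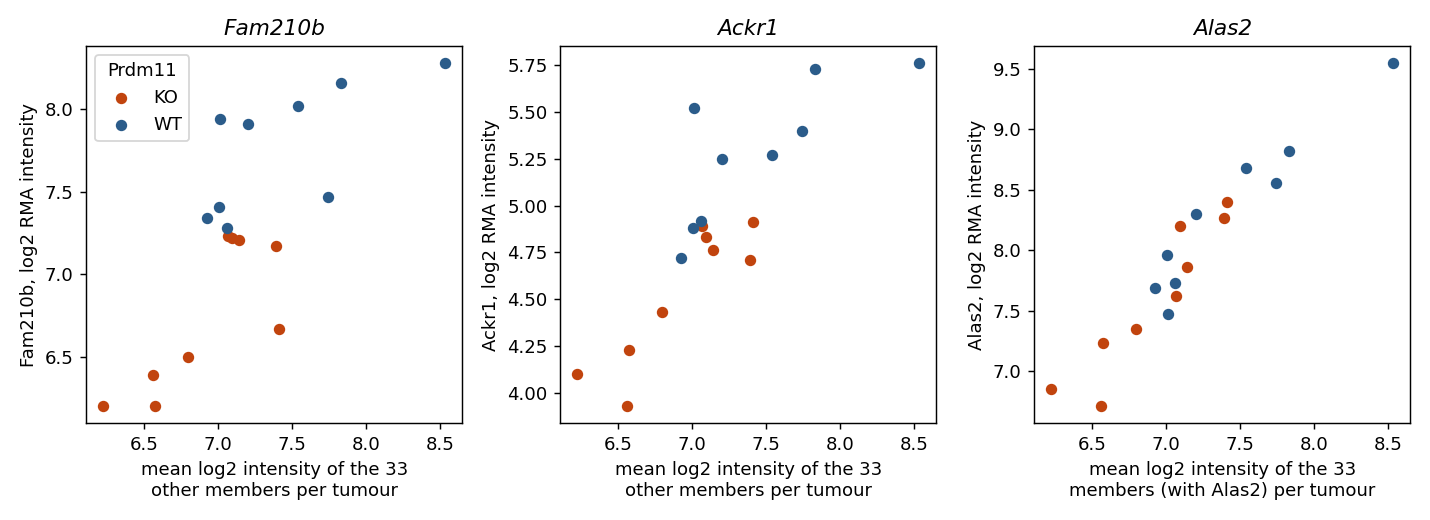
Log2 RMA intensity of Fam210b, Ackr1 and Alas2 against the mean log2 intensity of the 33 members in the same tumour, with 9 KO and 9 WT tumours in separate colours. In the Fam210b panel every KO point lies below every WT point, also where the mean of the 33 is alike. In the Alas2 panel, where that mean includes Alas2 itself, the points of both genotypes lie along a shared line. With the mean of the other members as covariate Alas2 had a difference of -0.05. The 33 members ran from -0.33 for Tspo2 to 0.40 for Slc4a1, so offsets between genotypes also occurred in other members.

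Fam210b and Ackr1 were set against Alas2 within each genotype. Fam210b correlated with Alas2 at r = 0.73 and rho = 0.62 over the 9 KO tumours (two-sided exact permutation p = 0.036 and 0.0857, adjusted over 6 relations 0.0438 and 0.0857). Over the 9 WT tumours it had r = 0.68 and rho = 0.72 (exact permutation p = 0.0423 and 0.0369, adjusted 0.0438 and 0.0553). Without the 2 tumours farthest from the Alas2 median, r was 0.88 in KO tumours and 0.84 in WT tumours. The relation was positive in both genotypes, and on ranks it missed 0.05 after adjustment in each. After quantile normalization r missed it as well, at 0.62 in KO tumours and 0.65 in WT tumours (exact permutation p, adjusted, 0.0784 and 0.0631).

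Ackr1 correlated with Alas2 at r = 0.91 and rho = 0.85 over the 9 KO tumours (exact permutation p = 0.00156 and 0.00607, adjusted 0.00384 and 0.0121). Over the 9 WT tumours it had r = 0.68 and rho = 0.62 (exact permutation p = 0.0438 and 0.0857, adjusted 0.0438 and 0.0857). Without the 2 farthest tumours, r was 0.84 in KO tumours and 0.93 in WT tumours. Over all 18 tumours with genotype means subtracted, r was 0.70 for Fam210b (rho 0.72) and 0.79 for Ackr1 (rho 0.78), with permutation p of 0.00192 (rho 0.0014) and 0.00036 (rho 0.00046) and adjusted p of 0.00384 (rho 0.0042) and 0.00216 (rho 0.00276). Without the 2 farthest tumours these r were 0.64 and 0.71.

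Fam210b and Ackr1 were more like each other, at r = 0.84 over the 18 tumours with genotype means subtracted, than Fam210b was like any of the 33. Next to Ackr1, Fam210b was closest to Tspo2 (0.80) and Rhd (0.78), and it was least like Tmcc2 (0.31), Ank1 (0.39) and Gata1 (0.42). Ackr1 was closest to Fech (0.88). The 5 genes outside the members most like Fam210b were Ube2l6 (0.85), Mboat2 (0.84), Cldn13 (0.83), Fn3k (0.83) and Smim1 (0.83). Those most like Ackr1 were Isg20 (0.87), Marchf8 (0.86), Nxpe2 (0.86), Cdr2 (0.85) and Mboat2 (0.85).

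A further list of 57 erythroid genes outside the members had 45 measured. Of these, 40 had differences below 0, where 59.2% of all genes did, and the median was -0.29. None passed the adjusted limma threshold, and 15 were lower and 0 higher at an unadjusted p below 0.05, against 3.87% of all genes lower. This list was also written with earlier results of these data known, so nothing is read from its counts. Cldn13, a claudin, had the lowest difference, -1.15 (SE 0.31, limma adjusted p = 0.663), with 7.6 to 9.84 in KO tumours and 9.12 to 10.98 in WT tumours. Nxpe2 had -1.07 (SE 0.25, limma adjusted p = 0.47). Fn3k, fructosamine 3 kinase, had -0.81 (SE 0.27). The 5 measured globin genes, which are also part of that list and did not include the adult alpha and beta chains, were all below 0, with Hbq1b, a theta globin, at -0.88 (SE 0.24) and Hbq1a at -0.77 (SE 0.29). Hbb-bh1, Hbb-y and Hba-x, globins of embryonic red cells, had means below that of the median gene. The summed linear intensity of the 5 ran from 167 to 352 in KO tumours and from 307 to 757 in WT tumours.

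Markers of other cells had differences of both signs. Of 13 pan-B markers, 11 had differences above 0, with a median of 0.46, led by Ebf1, a B lineage factor, at 0.92 (SE 0.41) and Vpreb3 at 0.84 (SE 0.36). Red pulp macrophage markers, of cells that recycle red cell iron, had a median of -0.18 with 12 of 14 below 0, including C1qc at -0.49 (SE 0.18) and Spic at -0.48 (SE 0.30). Their summed linear intensity was 1777 to 3251 in KO tumours and 1945 to 3987 in WT tumours. All 14 neutrophil markers were below 0, with a median of -0.32 and sums of 3144 to 14165 in KO tumours and 2652 to 18126 in WT tumours. T cell markers had a median of -0.21 with 10 of 11 below 0, and sums of 462 to 3071 in KO tumours and 427 to 3109 in WT tumours. Mitotic genes had a median of 0.08 with 4 of 13 below 0, and sums of 3503 to 8341 in KO tumours and 4666 to 12034 in WT tumours. The means of Ly6g, Mmp8 and Mmp9 among the neutrophil markers, and of Cd5, Cd28, Cd4 and Ctla4 among the T cell markers, were below that of the median gene. None of these markers passed the adjusted limma threshold. At an unadjusted p below 0.05, 7 of 13 pan-B markers were higher, where 2.83% of all genes were. At the same threshold 2 of 14 macrophage markers and 1 of 13 mitotic genes were lower, where 3.87% of all genes were. These marker lists too were written with earlier results of these data known, and nothing is read from their counts. The part of these cells in the erythroid differences was not tested.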

How the data were processed

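Intensities on a linear scale were deposited by the authors, made with RMA per the submitters' processing notes. Its version, the genome build and scan dates are not given in the sources used here. Values ran from 1.63 to 14996 and were transformed to log2 with no pseudocount. Of 35556 probe sets, 21789 had 1 gene symbol in the platform annotation, 1621 several and 12146 none. The probe set of highest mean was kept per gene, with no filter on dim genes. KO and WT tumours were compared with limma 3.58.1 in R 4.3.3 (lmFit, eBayes, no covariate), adjusted over 19938 genes by Benjamini-Hochberg, and the steps were tested on simulated data. No pair of arrays shared more than 0.045% of its values, so each array counted as 1 replicate. Python 3.11.15 with scipy 1.17.1 gave permutation tests (exact for 9 tumours, 100000 resamples for 18). The number of arrays limits the precision.

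The members, lists and tests were chosen with earlier results of these data known. All 36 members were to be named, with up to 4 genes of largest difference per other list and the 5 genes most like the mean, Fam210b and Ackr1. The plan counted 34 members outside Fam210b and Ackr1, of which 33 were measured. Same-numbered tumours shared only a number. Alternatives covered normalization, probe set choice, dim genes, array weights, the variance model, a replicate block, covariates and left-out tumours.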

Additional observations from a re-analysis of the deposited data

Results flagged for a closer look

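Among the 35 members and 8 means of members, each in 9 KO and 9 WT tumours, 5 values stood apart from the rest of their genotype by more than Dixon's limit for 9 tumours. Chance flags about 1 in 20 groups, and 86 groups were looked at. Gata1 in KO tumour 3 read 6.33, with the next KO tumour at 5.95, and Ank1 in the same tumour read 6.9, with the next at 6.22. Tfrc in KO tumour 6 read 8.71, below the next at 9.65, and the mean of Epor and Tfrc in that tumour was 7.1, below 7.57. Alad in WT tumour 1 read 9.4, above the next WT tumour at 8.52.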

How the results depend on the processing

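Under 27 alternative settings of the fit, 0 of the 35 members (33 with dim genes left out) passed the adjusted limma threshold. The median difference of the 33 members ran from -0.57 (without WT tumour 7) to -0.35 (without WT tumour 1) over left-out tumours, with 34 to 35 members below 0. It was -0.54 after quantile normalization and -0.48 with array medians centred. With array weights it was -0.39, and 34 members were below 0. With 1 KO and 1 WT tumour per number, the replicate block cannot change a mean difference. Its median of -0.50 and its 35 members below 0 were therefore fixed in advance. With that block 0 members passed the threshold. Once the genotype mean of each gene was subtracted, same-numbered tumours correlated from -0.23 to 0.48. By that measure 1 of 9 KO tumours matched its own number best, so the numbers were not used as pairs. Beside the other members, Fam210b ran from -0.74 to -0.60 and Ackr1 from -0.47 to -0.31 over left-out tumours, and with the replicate block the values were -0.76 and -0.46. Epor ran from -0.078 to 0.014 over left-out tumours, turning sign to 0.014 without WT tumour 1, and turned to 0.0049 with array weights; the cause was not tested. The correlation of Fam210b with Alas2 was 0.62 in KO tumours (exact permutation p, adjusted, 0.0784) and 0.65 in WT tumours (adjusted 0.0631) after quantile normalization, and the cause was not tested. A further fit used the mean of all 33 members as covariate for every gene, so each of the 33 was part of its own covariate. There 4 members were lower and 2 higher at an unadjusted p below 0.05, in place of 23 and 0. Of all genes, 5.71% were lower and 6.7% higher in that fit. The dim signal of Ackr1 and Add2 limits their values.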
